A study of Mus musculus with 7 samples.

Results

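The genes described here are the adaptors and brakes that sit directly behind receptors of the tumor necrosis factor (TNF) family, in splenic regulatory T cells (Tregs) of aged and young mice. They were chosen by symbol from the deposited gene table, and 10 of its 25469 genes are members, namely Traf1, Traf2, Traf3, Traf5, Traf6, Birc2, Birc3, Map3k14, Tnfaip3 and Tnip1. RNA-sequencing was performed on CD4+CD25+ splenocytes of wild-type mice, male C57BL/6 by the methods of the study, with 3 libraries of aged animals (18 months) and 4 libraries of young animals. The labels put the young animals at 8 weeks, and the methods of the study give another age in weeks. No treatment is named for either group. The cells were isolated with magnetic beads by CD4 and CD25 and not by Foxp3, so that the isolate could hold other cells, and "Tregs" is used below for this isolate.

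Receptors of the TNF family that lack a death domain carry no enzyme of their own and recruit TRAF proteins, which in turn bring the ubiquitin ligases cIAP1 (Birc2) and cIAP2 (Birc3). In the resting cell, TRAF2, TRAF3 and the cIAPs keep the kinase NIK (Map3k14) low by marking it for degradation, which holds back the non-canonical NF-kappa B pathway. A20 (Tnfaip3) edits and removes ubiquitin chains, with its partner ABIN1 (Tnip1), and so ends canonical NF-kappa B signaling. Tregs depend on several of these receptors, TNFR2 (Tnfrsf1b), OX40 (Tnfrsf4) and GITR (Tnfrsf18) among them.

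The count files held 10734234 to 11244060 gene counts in an aged library and 12039894 to 13649310 in a young one. All members were far above the limit of detection, with 529 to 13797 counts in a library. Of the 13904 genes that passed the filter on low counts, 2327 (16.7%) were called, that is, edgeR gave them a Benjamini-Hochberg adjusted p below 0.05, and 1362 of these were higher (9.8%) and 965 lower (6.94%) in aged Tregs. With the GC content and length trends of each library removed, the split was 1202 higher and 1485 lower. The aged values lay entirely above or below the young ones in 29.8% of the genes. Levels are given as CPM, in which each count is divided by the size of its library after TMM normalization, and Cd4 and Il2ra (which encodes CD25), used for the isolation, and Foxp3, the defining factor of Tregs, were at 327 CPM or more in every library. Mitochondrial genes took 5.08% to 10.7% of the counts in aged and 2.63% to 3.23% in young libraries. The haemoglobin share ran from 1.24% to 13.1% and was lowest in aged replicate 1 (1.27%) and young replicate 2 (1.24%).

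Marker genes of other cells and states were summed per library, and each of them had counts. Those of naive T cells were lower in aged Tregs, at 1349 to 1845 CPM against 2362 to 2767 CPM, with 6 of 7 genes called lower. Neutrophil markers were at 702 to 5379 CPM in aged and 267 to 955 CPM in young Tregs, highest in aged replicate 1, with 4 of 10 genes called higher and 10 at an unadjusted p under 0.05. Platelet markers were at 21.1 to 41.5 CPM against 8.62 to 18.0 CPM, with 2 of 5 genes tested called higher. The sums overlapped between the ages for effector or memory T cells (1478 to 1734 against 1281 to 1535 CPM, 3 of 9 called higher), B cells (1042 to 1941 against 1488 to 2356 CPM, 0 of 9 called by edgeR and 4 at an unadjusted p under 0.05), plasma cells (749 to 1304 against 325.5 to 2003 CPM, 1 of 6 called higher) and monocytes or macrophages (419 to 579.6 against 554 to 641 CPM, 1 of 10 called higher and 4 lower). They also overlapped for dendritic cells (45.2 to 66.2 against 58.9 to 78.05 CPM, 1 of 7 called higher and 2 lower), NK or CD8 T cells (64.3 to 113.7 against 82.2 to 134 CPM, 1 of 6 called lower) and erythroid cells (12690 to 156900 against 12380 to 116100 CPM, 0 of 6 called and 0 at an unadjusted p under 0.05). The 7 markers of the isolated cells summed to 2734 to 3303 CPM in aged and 2188 to 3312 CPM in young Tregs. Of these 7, Cd3e, a part of the T cell receptor complex, was called higher (log2 fold change 0.46, edgeR adjusted p = 0.0301), and 6 had an unadjusted p under 0.05, with log2 fold changes of both signs. Both genes used for the isolation had log2 fold changes below 0 and were not called, at -0.61 for Il2ra (adjusted p = 0.0588) and -0.30 for Cd4 (adjusted p = 0.117). Il2ra was at 327 to 481 CPM in aged and 471 to 684 CPM in young Tregs, which overlap, and Cd4 at 434 to 446 against 493 to 633 CPM, which do not. In such bulk samples, fewer cells of a type and less RNA per cell cannot be told apart, and the part of these other transcripts and of the mitochondrial share in the results below was not tested.

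Among the 10 members, 3 were called, Traf1 and Birc2 higher and Map3k14 lower in aged Tregs. Another 3 did not overlap between the ages without being called, Traf5 with higher and Birc3 and Tnip1 with lower aged values. Traf2, Traf3, Traf6 and Tnfaip3 overlapped. Without aged replicate 1, 5 members were called, with Traf6 and Tnfaip3 added as lower. All 10 members passed the filter on low counts, so that 3 of 10 called and 6 of 10 not overlapping stand beside shares of 16.7% and 29.8% over all genes tested. The median log2 fold change, aged over young, was -0.21 over the members and 0.02 over all genes tested, and with calls in both directions the members are given one by one.

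**Figure D1:**
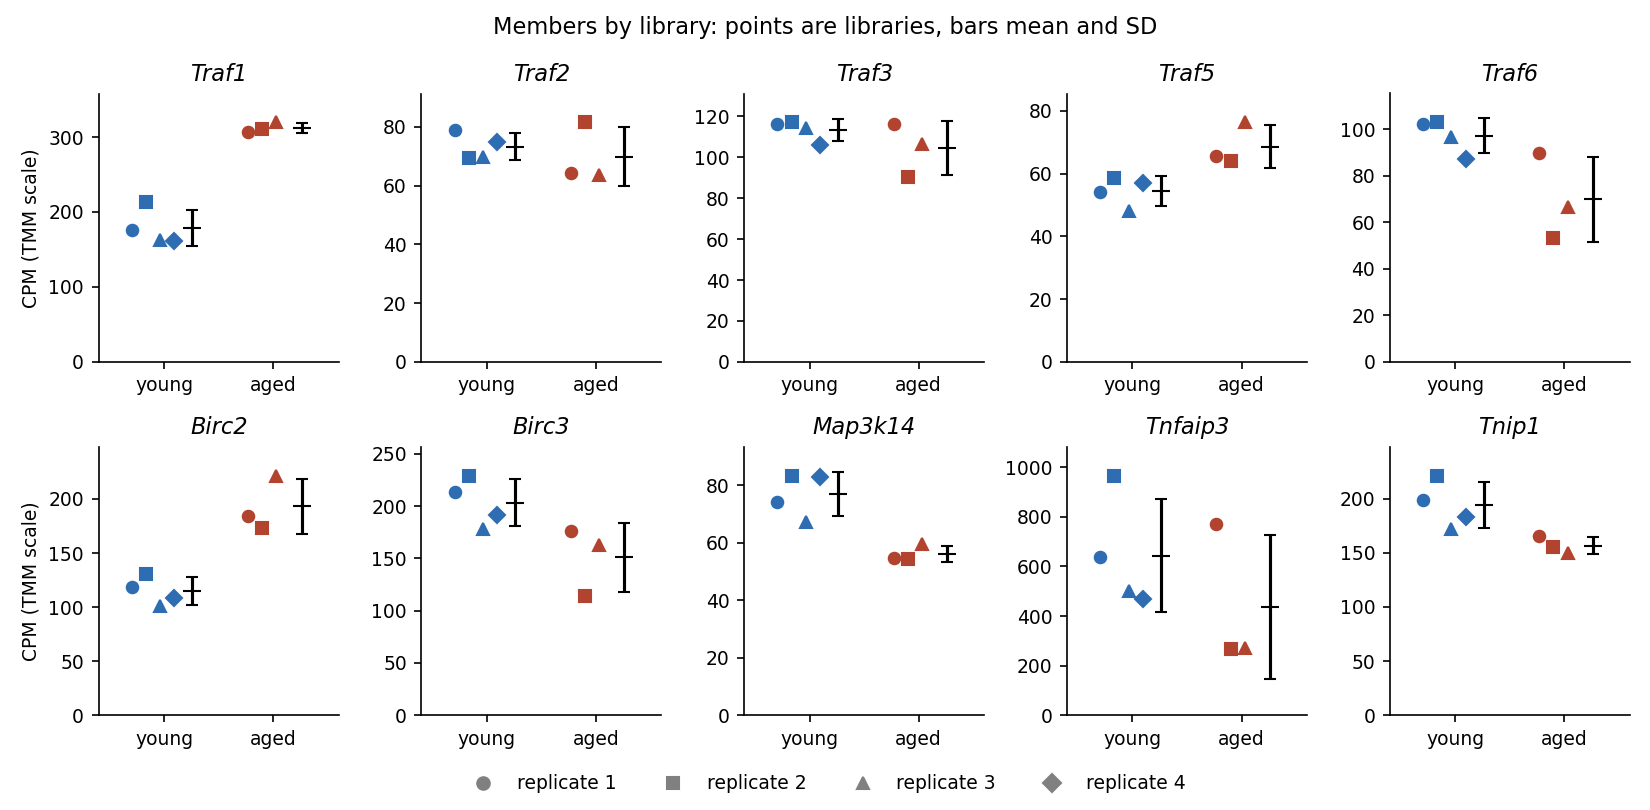
Expression of the 10 members in each library (CPM on the TMM scale, linear axis from 0). Points are libraries, with young in blue and aged in red and the shape giving the replicate number, and black bars are the mean and SD (n = 4 young, n = 3 aged). Traf1 and Birc2 sit higher in each aged library, Map3k14 sits lower, and Tnfaip3 is spread within both ages.

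Traf1 had the highest log2 fold change of the members. TRAF1 lacks the RING domain of the other TRAFs and works in trimers with TRAF2, below receptors such as TNFR2 and 4-1BB. The young libraries (replicates 1 to 4) held 176.5, 213, 163 and 161.5 CPM of Traf1, and the aged libraries (replicates 1 to 3) held 306, 311 and 319.7 CPM. The 3 aged libraries lay closer together than the young ones, and the lowest of them was well above young replicate 2, the highest young library. Traf1 averaged 312 ± 6.9 CPM over the aged libraries (SD, n = 3) and 178 ± 24.1 CPM over the young ones (SD, n = 4). The log2 fold change was 0.81 (standard error 0.119, 95% interval 0.54 to 1.08, edgeR adjusted p = 0.00396). Traf1 was called whichever library was left out, with log2 fold changes from 0.76 to 0.90. It was called in 16 of the 18 alternative fits. The call was lost with the replicate number as a block (edgeR adjusted p = 0.0653, and 0.0818 with GC content and length trends removed as well).

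For Traf2 and Traf3 no call was made, and the log2 fold changes were close to 0. TRAF2 is the adaptor that binds the cIAPs, and TRAF3 the one that holds NIK. Traf2 was at 64.3, 81.6 and 63.7 CPM in the aged libraries and between 69.4 and 78.8 CPM in the young libraries, so that aged replicate 2 was the highest of all and the other aged libraries the lowest. Its log2 fold change was -0.07, with a 95% interval from -0.32 to 0.19 (adjusted p = 0.715). Traf3 was at 116, 90.3 and 106.6 CPM in aged and 106 to 117 CPM in young Tregs, with aged replicate 2 below every other library. Its log2 fold change was -0.12, with an interval from -0.36 to 0.12 (adjusted p = 0.481). Leaving out 1 library gave -0.20 to -0.01 for Traf2, lowest without aged replicate 2, and -0.21 to -0.02 for Traf3, lowest without aged replicate 1. Both intervals lie below the log2 fold change of Traf1.

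Traf5, a close relative of TRAF2 that also acts at OX40 and CD27, was at 65.5, 63.95 and 76.4 CPM in the aged libraries and at 54.1, 58.5, 47.9 and 57.1 CPM in the young ones. All aged values were above the young ones, but the log2 fold change of 0.33 (standard error 0.105, 95% interval 0.09 to 0.57) was not called (adjusted p = 0.062). It was not called in any of the 18 alternative fits either, with adjusted p-values from 0.0511 to 0.371. Of its exon length, 5.91% overlaps other annotated genes, a long non-coding RNA on the opposite strand and a microRNA. Reads there may not have been assigned, since the annotation used for the counting is not given in the sources used here.

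Traf6, the adaptor of the interleukin-1 and Toll-like receptor pathways rather than of most TNF receptors, was at 102.5, 103, 96.9 and 87.1 CPM in young and at 89.7, 53.3 and 66.8 CPM in aged Tregs. Aged replicate 1 lay inside the young range and the other aged libraries below it. The log2 fold change was -0.48 (95% interval -0.86 to -0.10, standard error 0.167) and was not called (adjusted p = 0.0862). Without aged replicate 1 it was -0.70 and was called (adjusted p = 0.00967), without aged replicate 2 it was -0.32, and DESeq2 called it on all libraries (adjusted p = 0.0393). Over all 18 alternatives the adjusted p-values ran from 0.00967 to 0.217.

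The makeup of the TRAF family was also compared within libraries, as each gene's share of the summed level of these 5 genes per kilobase of exon (length of all annotated exons joined), so that a larger share of one gene lowers the others. Traf1 took 39.05%, 41.8% and 41.0% in the aged libraries and 25.8% to 30.4% in young Tregs. Traf6 took 8.02% to 12.8% in aged and 15.6% to 17.4% in young Tregs, and Traf3 14.6% to 17.8% against 20.01% to 22.05%. The shares of these 3 genes did not overlap between the ages, while those of Traf2 and Traf5 did. With the longest transcript as length, Traf1 took 53.3% to 55.7% against 38.6% to 44.2%, and the same 3 genes did not overlap. In the log2 ratio of Traf1 to Traf2, which no scaling between libraries can change, aged libraries were 0.89 higher (4.76, 3.81 and 5.01 Traf1 counts per Traf2 count, against 2.15 to 3.07). The ratio reached the smallest p that 3 against 4 libraries allow (two-sided exact permutation test, p = 0.0571, adjusted over 5 ratios 0.143). For Traf5 to Traf2 the ratios overlapped, with 0.784 to 1.198 in aged and 0.686 to 0.843 in young Tregs (difference 0.41, exact permutation p = 0.114, adjusted 0.143), and the difference was 0.27 without aged replicate 3.

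The stretch before the start of Traf1 is shown because Traf1 had the highest log2 fold change. It covers 250 bases at chr2:34961773-34962022 on the minus strand of GRCm38.p6 (RefSeq), written 5′ to 3′, just upstream of the gene at 34941750 to 34961772 on chromosome 2 (ENSMUSG00000026875). Capitals in this and the following stretches mark the motif GGGNNTTCC on either strand, a core of sites that NF-kappa B can bind, and this one holds none.
Traf1: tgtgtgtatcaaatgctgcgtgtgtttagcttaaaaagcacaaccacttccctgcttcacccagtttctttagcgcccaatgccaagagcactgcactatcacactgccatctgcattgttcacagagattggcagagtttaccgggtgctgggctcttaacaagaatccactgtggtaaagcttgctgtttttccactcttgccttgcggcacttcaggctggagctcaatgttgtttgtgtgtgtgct
Windows from 250 bases before to 50 after a start were on hand for all 10 members, 12 windows in all. The motif was in 5.82% of all 32851 windows and in 4 of the 12, those of Birc2, Tnfaip3, Tnip1 and Traf3. A match is only a match of letters, and other forms of NF-kappa B sites were not searched, so that a stretch without a match may hold one. Every stretch below ends before the outermost GENCODE start of its gene, except for the short one of Tnfaip3.

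The cIAP genes, Birc2 and Birc3, had log2 fold changes of opposite sign, of which that of Birc2 was called. They are neighbours on chromosome 9 and lie on the same strand 11634 bases apart, Birc2 (ENSMUSG00000057367) from 7818227 to 7837064 and Birc3 (ENSMUSG00000032000) from 7848699 to 7873186. Both encode ligases that add ubiquitin to RIPK1 and NIK, and Birc3 is a well-known NF-kappa B target gene. The young libraries held 119, 131, 101 and 108 CPM of Birc2, and the aged libraries 184, 173 and 222 CPM. Each aged library was above each young one. Birc2 averaged 193 ± 25.3 CPM over the aged libraries (SD, n = 3) and 115 ± 13.0 CPM over the young ones (SD, n = 4). The log2 fold change was 0.75 (standard error 0.126, 95% interval 0.46 to 1.04, edgeR adjusted p = 0.00675), and Birc2 was called whichever library was left out. It was called in 16 of the 18 alternative fits. The call was lost with the replicate number as a block (edgeR adjusted p = 0.1027, and 0.1375 with GC content and length trends removed as well).

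Birc3 was at 214, 229, 178 and 192 CPM in young and at 176, 114 and 163 CPM in aged Tregs. All aged values were below the young ones, with aged replicate 1 only just below young replicate 3. The log2 fold change was -0.43 (standard error 0.164, 95% interval -0.80 to -0.06), which was not called (adjusted p = 0.108) and was not called in any of the 18 alternatives (0.0517 to 0.253). It was -0.26 without aged replicate 2 and -0.56 without aged replicate 1.

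Within each library, the balance of the pair was on one side of an equal count in young and on the other in aged Tregs. There were 1.798, 1.75, 1.77 and 1.77 Birc3 counts for each Birc2 count in the young libraries, and 0.954, 0.657 and 0.735 in the aged ones. Birc3 was thus the more abundant of the pair in read counts in every young library and the less abundant in every aged one. This order depends on length, since per kilobase of longest transcript Birc3 (60.5 CPM) was above Birc2 (55.4) in aged replicate 1. In aged replicates 2 and 3 Birc3 was below Birc2 on that scale too. The young ratios had an SD of 0.0155 on the log2 scale, below the counting error of up to 0.0505 of a single young library, and the aged ones an SD of 0.276. The mean log2 ratio, aged minus young, was -1.199 (two-sided exact permutation test, p = 0.0571, the smallest possible; adjusted over 5 ratios 0.143), and ran from -1.35 to -1.08 when each library was left out. The summed level of both genes overlapped between the ages, at 344 ± 50.6 CPM over the aged libraries (SD, n = 3) and 318 ± 35.6 CPM over the young ones (SD, n = 4; exact permutation p = 0.4). Since the genes are paralogs, reads that align to both are uncertain, and how the aligner treated them is not given in the sources used here.

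**Figure D2:**
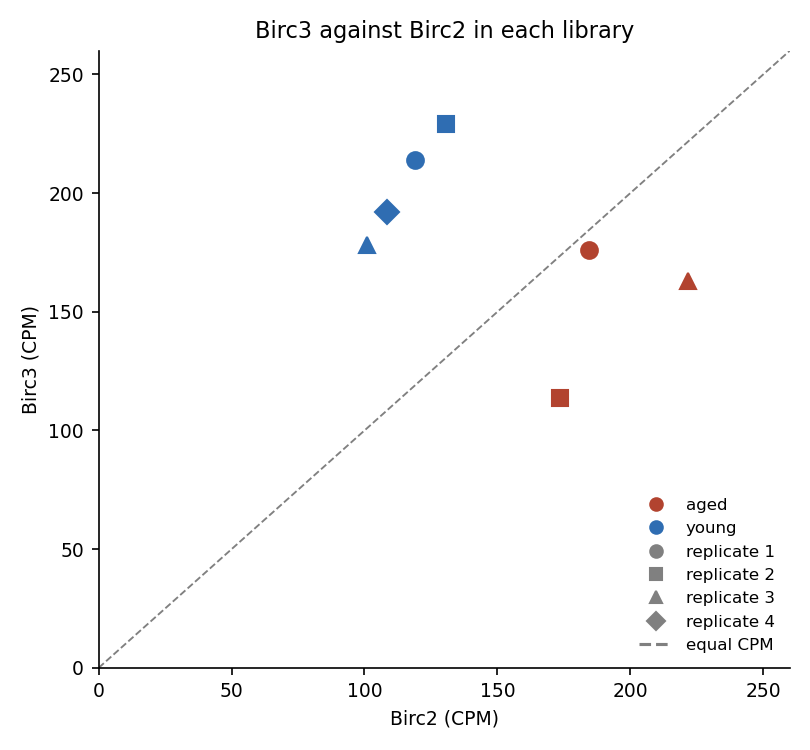
Birc3 against Birc2 in each library (both in CPM on the TMM scale, linear axes from 0), with young libraries in blue, aged in red, and a dashed line at equal CPM. The 4 young libraries lie along one line above it, at about 1.75 to 1.798 Birc3 per Birc2, and the 3 aged libraries lie below it.

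The stretches before both starts are shown because the ratio of these neighbours did not overlap between the ages. They lie at chr9:7837065-7837307 for Birc2, before the outer of 2 starts with a window, and at chr9:7873187-7873420 for Birc3, both on the minus strand of GRCm38.p6.
Birc2: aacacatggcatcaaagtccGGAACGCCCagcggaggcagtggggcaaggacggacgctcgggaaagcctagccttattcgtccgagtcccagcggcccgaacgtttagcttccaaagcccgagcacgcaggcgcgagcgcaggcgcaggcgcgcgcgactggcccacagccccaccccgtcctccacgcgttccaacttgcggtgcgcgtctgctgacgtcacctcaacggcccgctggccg
Birc3: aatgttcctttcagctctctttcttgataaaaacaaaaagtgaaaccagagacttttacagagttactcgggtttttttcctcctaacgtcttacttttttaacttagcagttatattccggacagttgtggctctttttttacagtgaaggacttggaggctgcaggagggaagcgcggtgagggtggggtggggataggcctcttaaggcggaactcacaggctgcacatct
The Birc2 stretch holds 1 match, which begins 230 bases before the RefSeq start, and the Birc3 stretch holds none.

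Map3k14, which encodes NIK, the kinase that starts the non-canonical pathway, was lower in aged Tregs. The young libraries held 74.2, 83.3, 67.1 and 82.7 CPM, and the aged libraries 54.6, 54.2 and 59.4 CPM. The aged libraries were tightly grouped and all below the lowest young one. Map3k14 averaged 56.1 ± 2.91 CPM over the aged libraries (SD, n = 3) and 76.8 ± 7.70 CPM over the young ones (SD, n = 4). The log2 fold change was -0.45 (standard error 0.103, 95% interval -0.69 to -0.22, edgeR adjusted p = 0.0209). The call depended on single libraries, since it was lost without aged replicate 2 (-0.43, adjusted p = 0.0587), without young replicate 1 (-0.47, adjusted p = 0.0503) and without young replicate 4 (-0.42, adjusted p = 0.0628). It was also lost with the replicate number as a block (edgeR adjusted p = 0.1491, and 0.2028 with GC content and length trends removed as well). Of the exon length of Map3k14, 2.06% overlaps another annotated gene. Relative to Traf3, the adaptor that brings NIK to its ligases, there were 0.4698, 0.600 and 0.558 Map3k14 counts per Traf3 count in aged and 0.588 to 0.782 in young Tregs. These ratios overlapped (log2 difference -0.32, two-sided exact permutation p = 0.114, adjusted over 5 ratios 0.143). A stretch of 120 bases before its outermost start, at chr11:103267473-103267592 on the minus strand of GRCm38.p6, is shown as that of the only member called lower and holds no match.
Map3k14: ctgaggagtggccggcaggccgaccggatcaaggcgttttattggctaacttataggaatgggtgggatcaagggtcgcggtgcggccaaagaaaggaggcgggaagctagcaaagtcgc

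**Figure D3:**
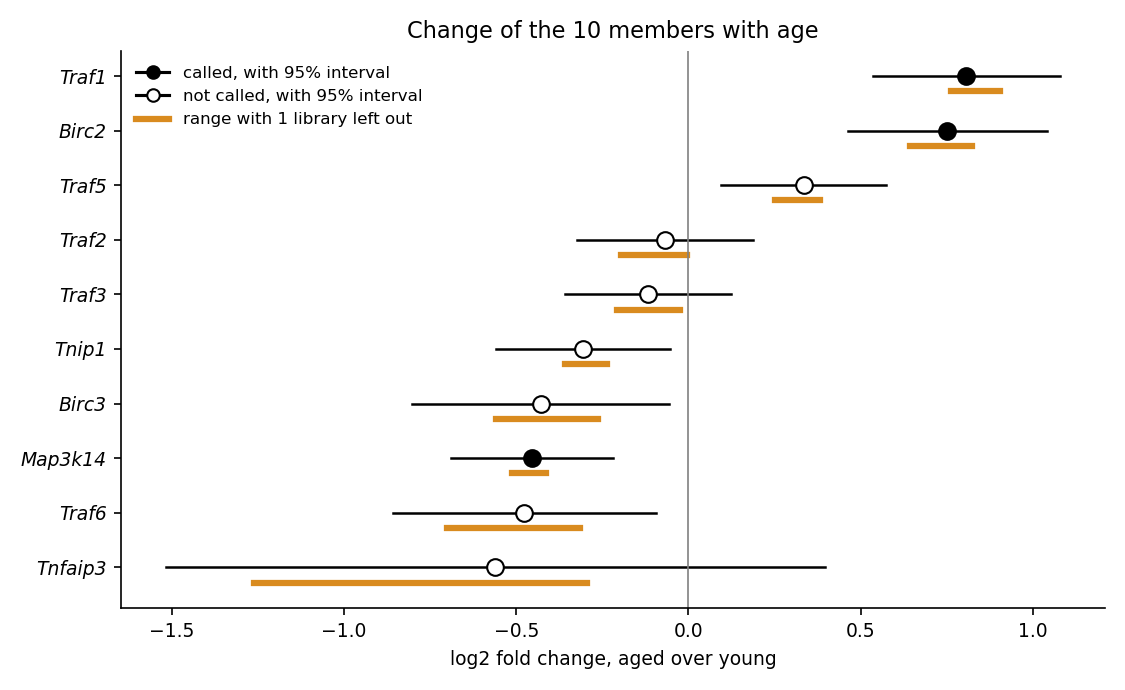
Log2 fold change of each member, aged over young, with its 95% interval (black line) and the range over 7 fits that each left out 1 library (orange bar). Filled circles are the 3 called members, Traf1 (0.81), Birc2 (0.75) and Map3k14 (-0.45), and open circles those not called. Tnfaip3 has the widest interval, from -1.52 to 0.40.

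Tnfaip3, which encodes A20, had the highest mean per kilobase of joined exons in both ages and the widest spread of the members. Its place in aged Tregs came from aged replicate 1, and with the longest transcript as length Traf1 had the highest aged mean. It was at 636.5, 967, 499 and 469.5 CPM in the young libraries and at 770.5, 267 and 270.3 CPM in the aged ones. Aged replicate 1 was above all young libraries except replicate 2, and the other aged libraries were below all of them. The coefficient of variation was 66.5% in aged and 35.4% in young Tregs, against at most 26.4% for any other member in either age. Across all libraries the log2 fold change was -0.56 (standard error 0.419, 95% interval -1.52 to 0.40, adjusted p = 0.396), which was not called. Single libraries moved it in both directions. Without aged replicate 1 it was -1.26 and was called (adjusted p = 0.025), and it was -0.30 without aged replicate 2, -0.31 without aged replicate 3 and -0.30 without young replicate 2, with no call. Adjusted p-values ran from 0.025 to 0.726 over the 17 alternatives set for it. Without aged replicate 1 and young replicate 2 together, chosen after seeing the data and in part for their Tnfaip3, the log2 fold change was -0.998, which is given with no test.

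The libraries with the highest Tnfaip3 of each age, aged replicate 1 and young replicate 2, were also those with the lowest haemoglobin shares. Their neutrophil markers were not alike, with the highest sum of all libraries in aged replicate 1 (5379 CPM) and the lowest in young replicate 2 (267 CPM). Aged replicate 1 also had the highest Traf3, Traf6, Birc3 and Tnip1 of its age, and young replicate 2 had the highest value of its age for every member but Traf2. The part of haemoglobin or neutrophil transcripts in the level of Tnfaip3 was not tested.

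**Figure D4:**
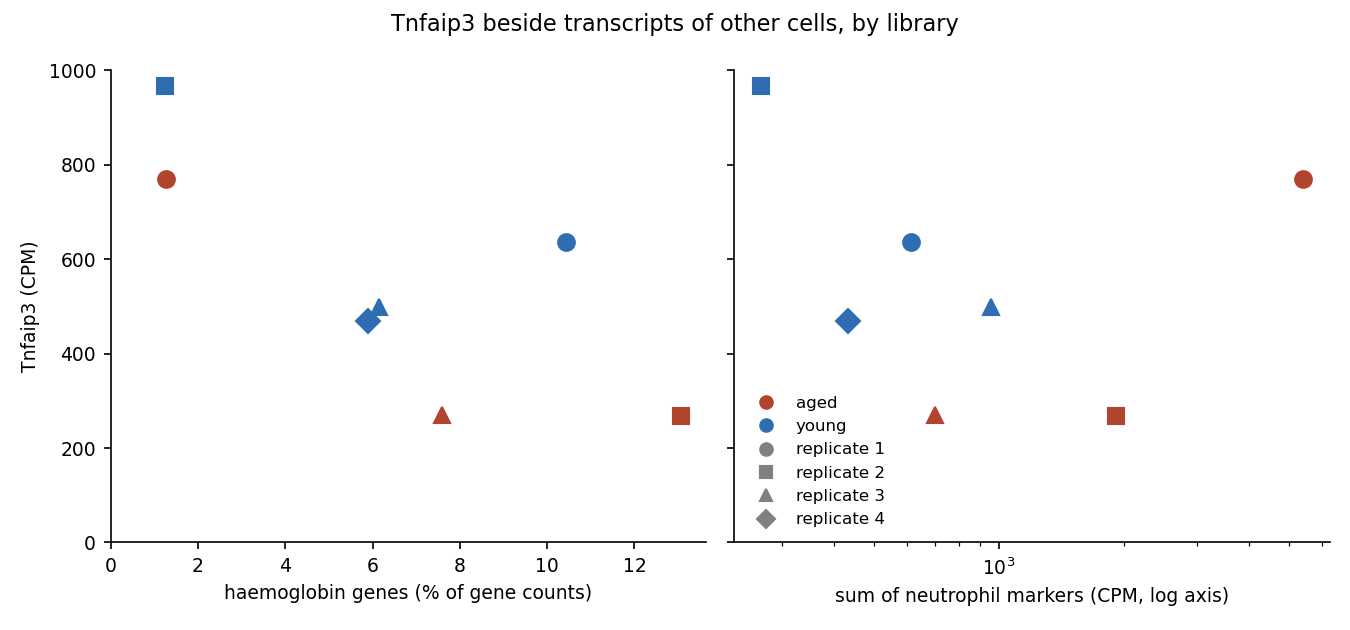
Tnfaip3 (CPM) in each library against the share of haemoglobin genes (left, % of gene counts) and against the summed CPM of 10 neutrophil markers (right, log axis), with young libraries in blue, aged in red and the shape giving the replicate. Aged replicate 1 (770.5 CPM) and young replicate 2 (967 CPM) stand at the left edge of the haemoglobin axis and at opposite ends of the neutrophil axis.

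Tnip1, whose product binds A20 and ubiquitin chains, was at 199, 221, 172 and 183.5 CPM in young and at 165, 155 and 149.5 CPM in aged Tregs. Its aged values were all below the young ones, and the log2 fold change was -0.31 (95% interval -0.56 to -0.05, standard error 0.111). It was not called (adjusted p = 0.0933), nor in any of the 18 alternatives, although DESeq2 gave 0.0501. The number of Tnfaip3 counts per Tnip1 count was 4.66, 1.72 and 1.81 in aged and 2.56 to 4.37 in young Tregs, which overlapped (log2 difference -0.39, two-sided exact permutation p = 0.457, adjusted over 5 ratios 0.457). The difference was -0.86 without aged replicate 1, -0.14 without aged replicate 2, -0.17 without aged replicate 3 and -0.24 without young replicate 2. Stretches before the starts of Tnfaip3, Tnip1 and Traf3 are shown because they hold the motif nearest to a start among the members. That of Tnfaip3, at chr10:19015411-19015440, holds 1 match and lies within the span of the gene in GENCODE, and that of Tnip1, at chr11:54962941-54963060, holds 2 overlapping matches, both on the minus strand of GRCm38.p6. That of Traf3, at chr12:111166250-111166369 on the plus strand, holds 1 match.
Tnfaip3: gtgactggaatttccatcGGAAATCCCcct
Tnip1: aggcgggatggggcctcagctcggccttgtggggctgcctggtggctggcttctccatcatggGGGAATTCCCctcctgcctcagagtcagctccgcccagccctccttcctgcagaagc
Traf3: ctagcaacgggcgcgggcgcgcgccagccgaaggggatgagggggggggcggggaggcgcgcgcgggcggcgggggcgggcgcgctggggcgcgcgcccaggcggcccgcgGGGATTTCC

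Levels between members were compared per kilobase of exon. In young Tregs the order was Tnfaip3 (89.0 CPM per kilobase), Tnip1 (54.8), Birc3 (40.6), Birc2 (25.05), Traf1 (20.2), Traf3 (15.4), Traf2 (14.4), Traf6 (12.35), Traf5 (11.9) and Map3k14 (11.7). In that order, neighbours whose library ranges overlapped were Birc2 and Traf1, Traf3 and Traf2, Traf6 and Traf5, and Traf5 and Map3k14. In aged Tregs Birc2 (42.2) and Traf1 (35.4) stood above Birc3 (30.1), and Traf5 (15.0) above Traf3 (14.2), Traf2 (13.7), Traf6 (8.87) and Map3k14 (8.56), while Tnfaip3 (60.3) and Tnip1 (44.3) had the highest means. That of Tnfaip3 was carried by aged replicate 1 (106.6 CPM per kilobase), and in aged replicates 2 and 3 Tnfaip3 (36.9 and 37.4) was below both Tnip1 (43.9 and 42.25) and Birc2 (37.9 and 48.4). The ranges did not overlap between Birc2 and Traf1, between Birc3 and Traf5, and between Traf2 and Traf6. The order depended on the length taken for each gene. That of Traf1 differed the most in ratio, as its joined exons span 8819 bases and its longest transcript 3436. With the longest transcripts, Traf1 led the aged order at 90.9 CPM per kilobase, with a range that overlapped that of Tnfaip3. Traf6 was then last in both ages (11.3 CPM per kilobase in aged and 15.8 in young Tregs) in place of Map3k14 (13.2 and 18.1). In young Tregs Birc3 (69.9) then stood above Tnip1 (65.2), with overlapping ranges, and Traf5 (26.1) and Map3k14 (18.1) above Traf2 (17.8), Traf3 (16.05) and Traf6.

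The genes whose pattern over the 7 libraries was nearest to a called member were sought among 7820 genes with a mean log2 CPM of at least 4, by the root mean square difference of log2 CPM after removal of each gene's mean. For Traf1 they were Cd86 (0.0337), Lpxn (0.0402) and Fam189b (0.0876). For Birc2 they were Psmb9 (0.068), Cbx7 (0.0831) and Tnfrsf1b (0.0858), and for Map3k14 Rftn1 (0.0441), Dapk3 (0.0513) and Cotl1 (0.0694). No gene came as near to Tnfaip3, added to this search after its values were seen, and the nearest, Zfp507, Dusp4 and Cog5, differed by 0.304, 0.304 and 0.311. The difference is not scaled by a gene's own spread, and Tnfaip3 had the widest spread of the members, so that its distances cannot be set against those of the others.

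The rest of the pathway was taken from 7 lists with 110 genes, all of which were tested. Of these, 22 were called higher and 8 lower in aged Tregs (27.3%, against 16.7% of all genes tested), with a median log2 fold change of 0.12 against 0.02 over all genes. The 30 calls were 12 without aged replicate 3, 14 without young replicate 1, 14 without young replicate 4 and 17 without young replicate 3. Of the 16 receptors that recruit TRAFs, 2 rose, 1 fell and 13 were not called. Tnfrsf1b, which encodes TNFR2, held 450.7, 402 and 499 CPM in the aged libraries and 270.3, 329, 238 and 224 CPM in the young ones, with no overlap. Tnfrsf9, which encodes 4-1BB, had a log2 fold change of 0.81 (adjusted p = 0.027, edgeR). Tnfrsf13c, the BAFF receptor of B cells, had one of -0.93 (adjusted p = 0.0391). Of the 9 B cell markers 0 were called, and the 4 at an unadjusted p under 0.05 had log2 fold changes from -1.01 to -0.62. Those of the other B cell markers ran from -0.50 to 0.21, and the part of B cells here was not tested. OX40 (Tnfrsf4) and GITR (Tnfrsf18) had log2 fold changes of 0.62 and 0.49 and were not called (adjusted p = 0.115 and 0.144). Between 1 and 6 receptors were called when 1 library was left out. There were 0 higher and 1 lower without aged replicate 3, and 1 higher and 0 lower without young replicate 1, 3 or 4. Without aged replicate 1 or 2 there were 2 higher and 0 lower, and without young replicate 2, 5 higher and 1 lower. With aged replicate 1 and young replicate 2 both left out, chosen after seeing the data, 6 were called higher and 1 lower.

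Among 20 other adaptors and TRAF-binding proteins, 2 rose, 2 fell and 16 were not called. Trafd1, which restrains TRAF6-dependent signaling, rose by 0.62 (adjusted p = 0.0175) and Malt1, the paracaspase of the antigen receptor complex, by 0.54 (adjusted p = 0.0423). Ripk1, the kinase that the cIAPs modify at TNFR1, fell by 0.64 (log2, adjusted p = 0.0357). The 4 of 20 called stand beside 16.7% over all genes. Leaving out 1 library gave 1 to 4 calls. These were 1 higher and 0 lower without aged replicate 3 or young replicate 1, 3 or 4, and 1 higher and 1 lower without young replicate 2. Of 21 other ubiquitin ligases, readers and deubiquitinases, 3 rose, 3 fell and 15 were not called (28.6% called). Tnip2 and Tnip3, relatives of Tnip1 that also bind A20, rose by 1.05 and 1.17 (adjusted p = 0.00244 and 0.0352), the opposite sign to Tnip1. Tnip3 was low, with a mean of 4.15 CPM in aged and 1.83 CPM in young Tregs, and Tnip2 averaged 28.8 ± 1.61 CPM over the aged (SD, n = 3) and 13.9 ± 2.06 CPM over the young libraries (SD, n = 4). Sharpin, a part of the linear ubiquitin ligase, rose by 0.35 (adjusted p = 0.0364). The ligases Itch, Xiap and Peli2 fell by 0.42, 0.35 and 0.92 (adjusted p = 0.0195, 0.0367 and 0.033). Itch is known to work with A20, and Xiap is a relative of Birc2 and Birc3. For the deubiquitinase Cyld, another brake of the pathway, the log2 fold change was 0.05 (adjusted p = 0.801). The number called of these 21 genes ranged from 1 to 6 with 1 library left out. It was 1 (higher) without aged replicate 3, young replicate 1 or young replicate 4, and 2 (1 higher, 1 lower) without young replicate 3. Without aged replicate 2 or young replicate 2 it was 3 (2 higher, 1 lower).

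Of 13 genes of the IKK and TAK1 kinases, 1 rose and 12 were not called (7.69% called, against 16.7% over all genes), and 2 were called without aged replicate 1. The called gene was Map3k5, which encodes the stress kinase ASK1, at 0.95 on the log2 scale (edgeR adjusted p = 0.000976). The IKK genes Chuk, Ikbkb and Ikbkg had log2 fold changes of -0.25, 0.17 and 0.11 and were not called. Of 11 NF-kappa B subunits and inhibitors, 2 rose and 9 were not called (18.2% called). Relb, the subunit of the non-canonical pathway, rose by 0.42 (adjusted p = 0.0384) and Nfkbid by 0.56 (adjusted p = 0.0166). Nfkb2, the precursor that NIK signaling processes, had a log2 fold change of 0.20 (adjusted p = 0.231). Nfkbia (-0.60, edgeR adjusted p = 0.0602) and Nfkb1 (-0.35, adjusted p = 0.0691) were not called, with all aged values below the young ones. Rela (0.32, adjusted p = 0.0537) and Nfkbie (0.38, adjusted p = 0.0718) were not called either, with all aged values above the young ones. Between 0 and 4 of these 11 genes were called with 1 library left out. Without aged replicate 3 edgeR called 0 of them, with 5 at an unadjusted p under 0.05, without young replicate 1 or 4 it called 1, and without aged replicate 1 it called 3 higher and 1 lower. DESeq2 on all libraries called 2 higher and 2 lower. Of 9 genes of the death complex at TNF receptors, 2 rose and 7 were not called (22.2% called), and 1 was called without aged replicate 3 or without any 1 of the young replicates. Cflar, the inhibitor of caspase-8, rose by 0.37 (adjusted p = 0.0289), and Mlkl, the effector of necroptosis, by 1.25 (adjusted p = 0.00933).

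Of 20 other NF-kappa B target genes, 10 rose and 2 fell (60.0% called, against 16.7% over all genes tested), and 8 were not called. The median log2 fold change was 0.58, against 0.02 over all genes tested. Targets among the members or in the other lists are not in this list, so that these values are not those of all NF-kappa B targets. Il1b, Ccl22 and Cxcl2 rose by 3.23, 1.38 and 1.92 (adjusted p = 0.0011, 0.00147 and 0.00258), genes that myeloid cells also make. Vcam1 and Ccr7 fell by 0.56 and 0.77 (adjusted p = 0.0139 and 0.0213), the former a marker of macrophages and the latter of naive T cells. Called neutrophil markers were higher and called naive T cell markers lower in aged Tregs, as given above. Of the 10 monocyte or macrophage markers, 1 was called higher and 4 lower, Vcam1 among the latter. The part of all these markers here was not tested. Between 7 and 12 of these 20 genes were called when 1 library was left out, the fewest without aged replicate 3, and 12 with aged replicate 1 and young replicate 2 both left out. Tnfaip3 and Birc3, NF-kappa B targets themselves, had log2 fold changes below 0 without a call, and Traf1, which is also one, rose.

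**Figure D5:**
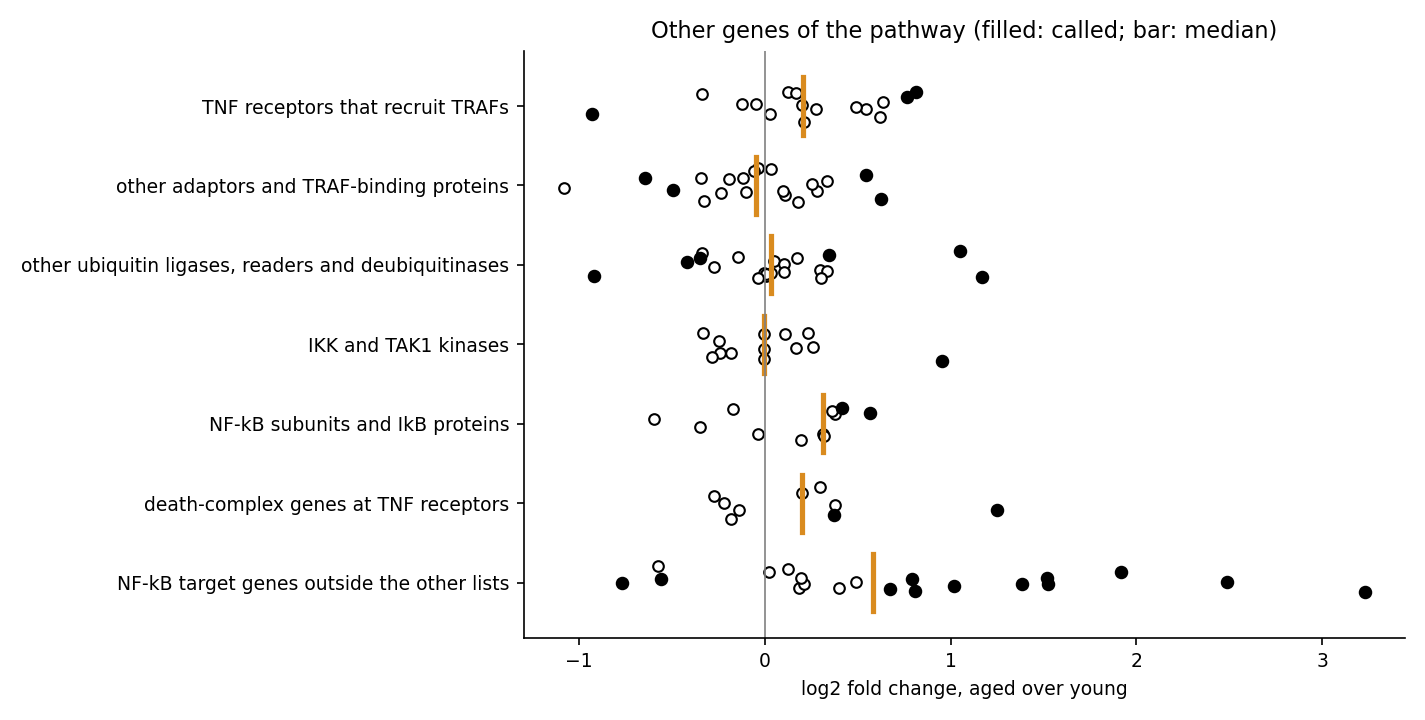
Log2 fold change, aged over young, of 110 other genes of the pathway in 7 lists. Each circle is a gene, filled where called (adjusted p under 0.05, edgeR), orange bars are list medians, and the vertical scatter within a list carries no value. The list of other NF-kappa B targets has the highest median (0.58) and reaches 3.23 (Il1b).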

How the data were processed

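The authors deposited raw read counts per Ensembl gene (layout of HTSeq-count, union mode, no strand) and a table with a signal per gene, the count over a size factor of its library. The authors' own log2 fold changes, p-values and test statistics in it were not used. The submitters' notes name mm10, and the aligner is not given in the sources used here. Reads not assigned to a single gene (13.1% to 20.9%) stayed out. Counts were fitted with edgeR 4.0.16 in R 4.3.3 (TMM, filterByExpr, quasi-likelihood test, no covariate), with Benjamini-Hochberg adjustment over 13904 genes. Alternatives used DESeq2 1.42.0 and limma 3.58.1. The fits were tested on simulated data, of which no outcome is given here. Counting error covers counting only, since there are no molecular identifiers. Pairs of libraries of one age differed beyond counting noise (chi-square per degree of freedom 8.88 to 185). Coordinates and lengths are GENCODE M21 (GRCm38), matched by gene identifier, and sequences are RefSeq (GRCm38.p6). The named genes are the members, up to 3 called genes per pathway list and direction with the smallest adjusted p (1 of which is not reported here), and the 3 genes nearest to each of the 3 members with the smallest p. Tnfrsf4, Tnfrsf18, Cd3e, Cd4, Il2ra, Cyld, Chuk, Ikbkb, Ikbkg, Nfkb2, Nfkbia, Nfkb1, Rela, Nfkbie and the genes nearest to Tnfaip3 were chosen after their values were seen. The members, lists and tests were chosen with earlier results of these data known.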

Additional observations from a re-analysis of the deposited data

How the results depend on the processing

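The direction of each of the 10 members was the same in all 18 alternative fits, and 166 of 180 calls or non-calls were the same. Against 2327 genes called with all libraries, 2687 were called with the GC content and length trends removed, and 1016 when a log2 fold change of at least 1 was also required, which no member reached (0 of 10). Leaving out 1 library gave 1237 to 3058 genes, 2 to 5 members (3 with all libraries) and 12 to 32 pathway genes (30 with all libraries). Without aged replicate 1 and young replicate 2, chosen after seeing the data, 4 of the 9 members other than Tnfaip3 were called. Tnfaip3 is not counted there, since the choice partly rested on its level. The labels do not say whether a shared replicate number pairs the libraries. Deviations from the age means correlated at -0.09, -0.29 and -0.14 for numbers 1 to 3, and no library correlated best with its own number. These values gave no sign of a pairing, but so few libraries cannot decide it. With the replicate number as a block, 292 genes, 0 members and 4 pathway genes were called, and 284, 0 and 3 with the GC content and length trends removed as well, in fits with fewer residual degrees of freedom (edgeR, with 4 and 5 members at an unadjusted p under 0.05). The log2 ratio differences between members kept their sign, though not their size, with each library left out, and their sign with 5 counts added in place of 0.5. Levels per kilobase moved with the length chosen. With 3 against 4 libraries an exact permutation test cannot go below p = 0.0571.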
